A study of Mus musculus with 288 samples.

Results

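The genes described here are 9 ion channel genes of the heart: Kcnh2, Kcnip2, Kcnd2, Kcna5, Kcnj2, Kcnq1, Hcn2, Hcn4 and Cacna1c. They were chosen by name, with earlier results of these data known, and not by a cutoff on a measured value. They are 9 of the 35904 genes in the expression tables, where every one of them was found. The study asked how intermittent hypoxia (IH), a model of the repeated falls in oxygen of obstructive sleep apnea, changes RNA across the day. Wild-type male C57BL/6J mice, 8 weeks old, were kept in normoxia or exposed to IH during the light phase for 7 days, and then moved to constant darkness in normal air. Heart, lung, liver, kidney, muscle and cerebellum were taken on the second day of darkness, at 8 clock times 3 hours apart, from 1:30 to 22:30, with 3 replicates each. This gave 24 libraries per tissue and treatment and 288 in all. Every group shared strain, genotype, sex and age, and the recorded differences between groups were treatment, tissue and clock time. Levels are in TPM, a transcript abundance set per transcript length and as a share of the library, and 0 libraries held the same values as another. TPM keep no read counts, so the depth of the single libraries was not used here. Which libraries of different tissues came from the same mouse is not recorded in the labels, and the p-values treat libraries as separate mice.

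The beat of the heart rests on ion currents that follow each other in a fixed order. Calcium that enters through L-type channels holds the plateau and starts contraction, and several potassium currents then bring the membrane back to rest. In mice the early, fast potassium currents do most of this work, while the slower delayed rectifiers matter more in larger mammals. Pacemaker (HCN) channels open when the membrane is negative and set the rate in the sinoatrial node. Several of these genes are also used outside the heart, in neurons, smooth muscle and epithelia.

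Some libraries stood apart before any comparison was made. In heart, 25124 ± 1719 genes (SD, n = 24) were detected above 0 TPM in normoxia and 21447 ± 688 after IH, and the lowest normoxia library (22988) lay above the highest IH library (22793). This difference and the treatment therefore cannot be told apart in heart. In lung the numbers ran the other way, 22694 ± 737 in normoxia and 25455 ± 1529 after IH, with overlap. In the heart library normoxia replicate 3 at 7:30, the 8 working cardiomyocyte markers summed to 10432 TPM, the lowest of all heart libraries, 4 lung epithelium markers summed to 1559 TPM against a median of 0.986 in normoxia, and Arntl stood at 11.2 TPM where its 2 fellow replicates had 2.26 and 1.81. Lung epithelium markers were also high in heart normoxia replicate 2 at 19:30 (1988 TPM) and replicate 3 at 13:30 (820 TPM), and to a lesser degree in IH replicate 3 at 7:30 (640 TPM), normoxia replicate 3 at 19:30 (371 TPM) and IH replicate 1 at 19:30 (269 TPM). The neuronal genes Snap25 (32.7 TPM) and Pcp2 (62.5 TPM) were present in heart IH replicate 2 at 10:30. In liver IH replicate 2 at 13:30 and cerebellum IH replicate 3 at 1:30, the cardiomyocyte marker sum reached 32.2% and 35.8% of the mean of the heart in normoxia. Cerebellum normoxia replicate 3 at 19:30 held 5901 TPM of skeletal muscle markers, against a median of 88.2. The lists of each tissue's own markers were led by Alb in liver, Kap in kidney, Acta1 in muscle, Scgb1a1 in lung and Pcp2 or Snap25 in cerebellum. Single libraries whose omission changes a result are named with it.

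Levels across the 6 tissues are given first, for normoxia, as mean ± SD over 24 libraries. Kcnip2 encodes KChIP2, the calcium-binding subunit that brings the channels of the fast transient outward current to the membrane. It stood at 50.9 ± 8.99 TPM in heart, above every library of the next tissue, cerebellum (4.53 ± 2.77), and under 1 TPM on average in kidney, lung, muscle and liver. Kidney and lung, and muscle and liver, did not differ beyond their spread in that order. Kcnd2 encodes Kv4.2, a pore of the same current that is also strong in neurons, and its order was led by cerebellum (45.0 ± 12.6 TPM) before heart (2.32 ± 0.648), with lung, kidney, muscle and liver all under 0.1 TPM. The subunit and the pore thus peaked in different tissues. Kcna5 encodes Kv1.5, the channel of the ultrarapid potassium current, and was about as high in muscle (9.08 ± 2.96 TPM) as in heart (8.62 ± 2.61), a pair that did not differ beyond its spread, and under 1 TPM on average in the other tissues.

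Of the delayed rectifiers, Kcnh2, which encodes ERG1, the pore of the rapid current, was highest in heart (22.8 ± 4.91 TPM), followed by cerebellum (12.7 ± 4.90), lung (4.98 ± 0.941), muscle (2.79 ± 0.577), kidney (0.752 ± 0.172) and liver (0.0674 ± 0.0419). The intervals of mean ± SD were apart at each step of this order, although single libraries of heart and cerebellum, of cerebellum and lung, and of lung and muscle overlapped. Kcnq1, the pore of the slow current, which epithelia also use for potassium recycling, was highest in lung (19.8 ± 3.75 TPM), then in kidney (10.9 ± 1.75) and heart (6.25 ± 1.73). Muscle, cerebellum and liver followed at means near 1 TPM and did not differ beyond their spread. Kcnj2 encodes Kir2.1, the inward rectifier that holds the resting potential, and was highest in muscle (10.2 ± 3.38 TPM), with lung (5.06 ± 1.02) and heart (3.93 ± 1.31) next and not separated by their spread. Cerebellum (1.05 ± 0.475) and kidney (0.585 ± 0.149) overlapped below them, and liver was lowest. Among the pacemaker genes, Hcn2 was led by cerebellum (46.4 ± 18.9 TPM) before heart (7.21 ± 1.80), and muscle, lung and kidney, with means of 1.06, 1.01 and 0.697 TPM, overlapped above liver. Hcn4, the main pacemaker channel of the sinoatrial node, was low everywhere, at 1.05 ± 0.443 TPM in heart, 0.668 ± 0.250 in muscle and 0.649 ± 0.203 in cerebellum, and these 3 tissues overlapped, while lung (0.284 ± 0.108), kidney and liver lay below them. Cacna1c, the pore of the cardiac L-type calcium channel, was highest in heart (18.2 ± 5.74 TPM), above every lung library (6.56 ± 0.825), and lung and cerebellum (4.51 ± 1.29) did not separate, with muscle, kidney and liver in that order below them. On the TPM as deposited, only Kcnh2, Kcnip2, Hcn4 and Cacna1c therefore had their highest mean in heart, and for Hcn4 that lead lay within the spread.

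**Figure D1:**
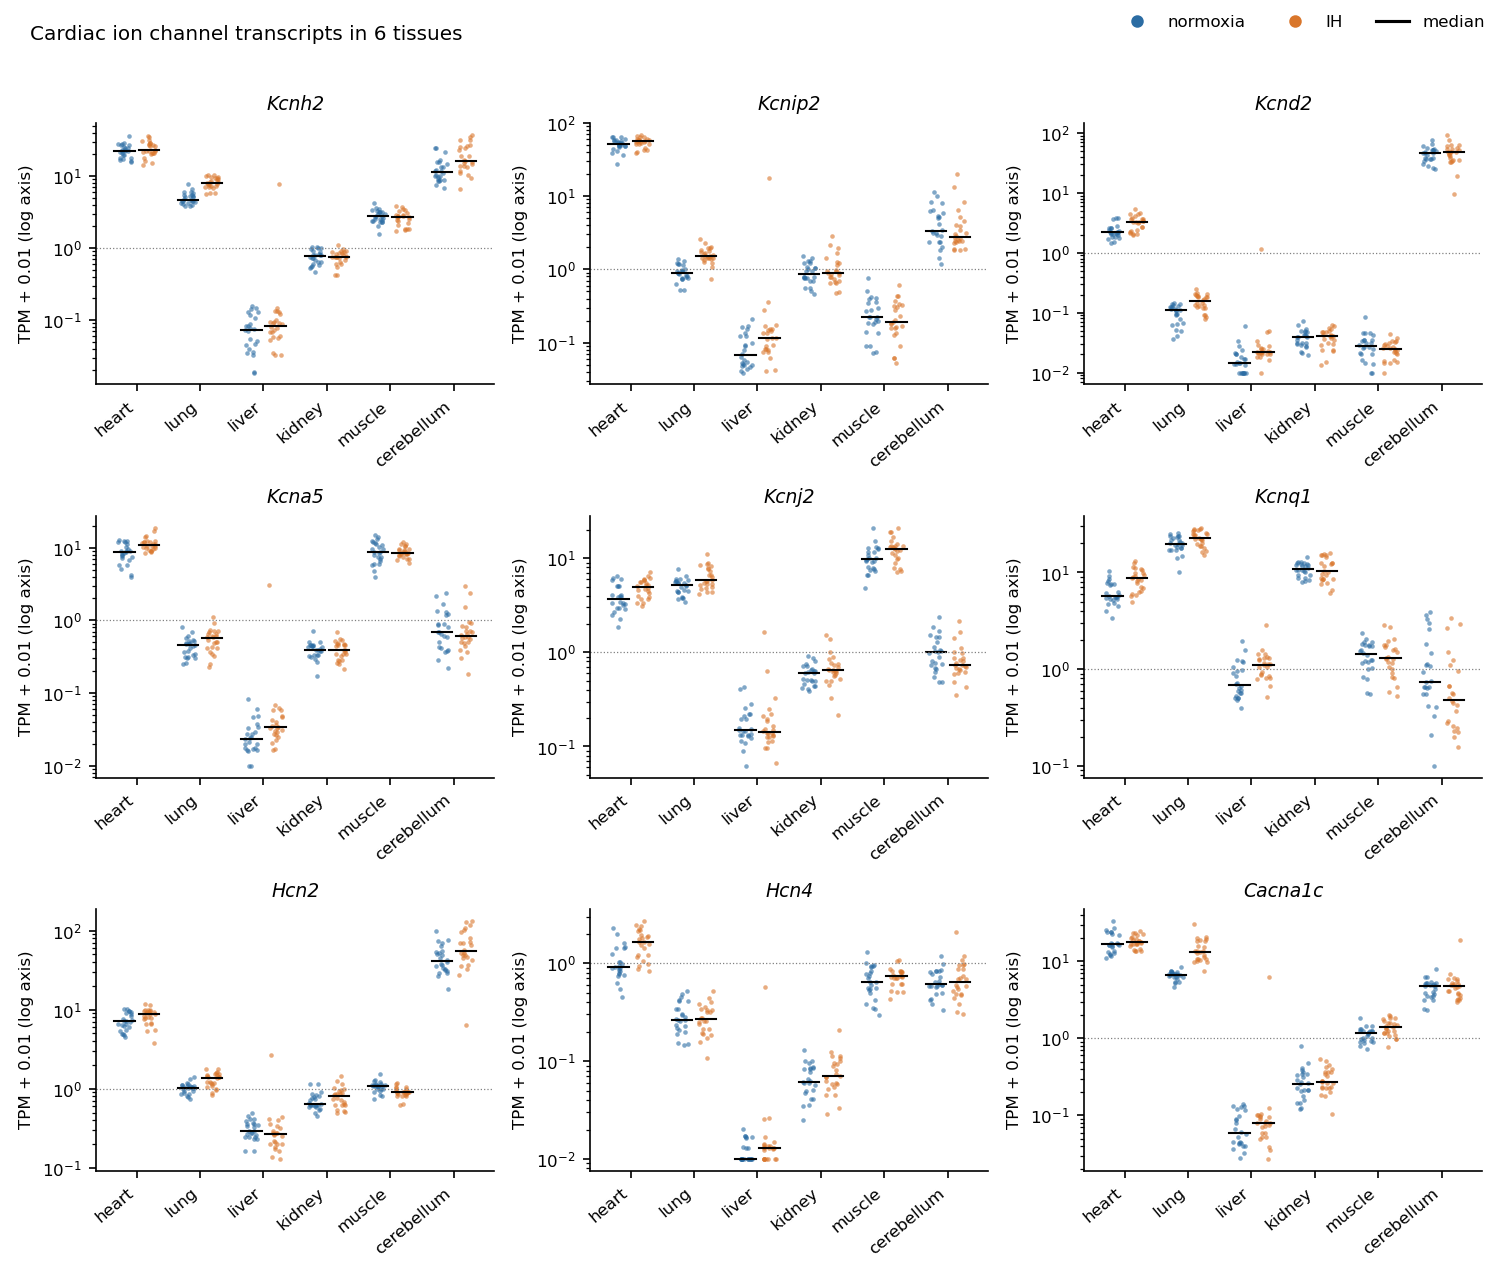
TPM + 0.01 on a log axis for the 9 genes in 6 tissues; each point is a library (24 per tissue and treatment, blue normoxia, orange IH), the bar is the median and the dotted line marks 1 TPM. Kcnip2 in heart (lowest library 27.5 TPM in normoxia) lies above all other tissues, Kcnd2 and Hcn2 are highest in cerebellum, and single liver and cerebellum libraries after IH rise towards the heart.

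With limma, 8 of the 9 genes could be tested between heart and each other tissue in normoxia, and Hcn4 missed the minimum mean of 1 TPM. A level above the other tissue at an adjusted p of at most 0.05 was found for 7 genes against lung (39.0% of all genes tested were higher in heart), 8 against liver (42.0%), 7 against kidney (39.7%), 6 against muscle (38.4%) and 6 against cerebellum (43.2%). A gene under 1 TPM in the other tissue could be tested only through its level in heart, which held for 3, 8, 7, 2 and 1 of the 8 tested, so nothing is read from these counts. Between heart and cerebellum, where its mean passed 1 TPM in both tissues, Kcnip2 differed by 4.45 on the log2 scale (SE 0.178, limma adjusted p = 6.3e-29). Kcnd2 (-3.07, SE 0.089, limma adjusted p = 3.4e-35) and Hcn2 (-1.57, SE 0.136, limma adjusted p = 3.2e-15) were lower in heart than in cerebellum. Kcnj2 was lower in heart than in muscle by a log2 difference of -0.96 (SE 0.109, limma adjusted p = 2.8e-11). Kcna5 differed between heart and muscle by 0.25 (SE 0.124), with a limma adjusted p of 0.0572 that became 0.0117 at 0.31 without heart normoxia replicate 3 at 7:30.

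The scaling of libraries mattered in these tissue comparisons. Libraries were scaled by the median of ratios, since the tissues differ in how much of their RNA goes to a few genes, and with the TPM as deposited the median of all genes moved from -0.09 to -1.23 between heart and lung. It moved from -0.05 to 0.22 against liver, from -0.10 to -0.52 against kidney, from -0.01 to -0.31 against muscle and from 0.01 to -0.90 against cerebellum. The share of called genes that were higher in heart went with it, from 45.5% to 12.7% (lung), 48.1% to 59.0% (liver), 45.2% to 29.0% (kidney), 48.8% to 24.5% (muscle) and 50.2% to 23.0% (cerebellum). Among called differences of the 9 genes this turned a single direction. Kcnj2 was higher in heart than in lung after scaling (0.76, limma adjusted p = 1.0e-09) and lower on the TPM as deposited (-0.36, limma adjusted p = 7.9e-04). Kcnq1 was lower in heart than in lung (-0.40) and kidney (-0.35) with scaling and on the deposited TPM (-1.60 and -0.78). The estimate for Kcna5 against muscle, called in neither, went from 0.25 to -0.06. With the replicate number as a block it was called (0.25, limma adjusted p = 0.0477).

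The next comparison asks how IH changed the mean level over the day in heart. Hcn4 ran from 0.447 to 2.29 TPM with a median of 0.899 in normoxia, and from 0.830 to 2.68 with a median of 1.64 after IH. Kcnq1 had a lowest, median and highest level of 3.39, 5.64 and 10.4 TPM in normoxia, and of 4.99, 8.72 and 13.2 after IH. Kcnd2 went from 1.42, 2.18 and 3.84 TPM to 2.00, 3.27 and 5.43. In all of these the IH libraries lay higher as a group, yet the ranges overlapped over most of their width. Kcna5 had 3.89, 8.65 and 12.7 TPM in normoxia and 8.48, 10.9 and 18.7 after IH, so that the lowest IH library lay just under the normoxia median.

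These 4 genes rose. The change was 0.38 on the log2(TPM + 0.5) scale for Hcn4 (SE 0.093, 1.30-fold, limma adjusted p = 9.6e-04), and the IH mean was higher at 8 of 8 time points. It was 0.33 for Kcnq1 (SE 0.094, 1.26-fold, limma adjusted p = 0.00421), with 7 of 8 time points higher. Kcna5 followed at 0.30 (SE 0.109, 1.23-fold, limma adjusted p = 0.0209), also higher at 7 of 8. Kcnd2 rose by 0.29 (SE 0.088, 1.23-fold, limma adjusted p = 0.00568), higher at 8 of 8. The risen genes thus held potassium channel pores of the early and late repolarising currents and a pacemaker channel, and on this scaled log2 scale none changed by as much as 1.5-fold, although the medians in TPM given above lie further apart for some. The pseudocount of 0.5 TPM understates the change of low genes such as Hcn4.

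The other 5 genes did not pass the test in heart. Kcnj2 changed by 0.20 (SE 0.091, limma adjusted p = 0.0626), from a median of 3.63 to 4.98 TPM, and leaving out any 1 of 8 libraries brought its adjusted p to between 0.0339 and 0.0482 at changes of 0.22 to 0.23. On the TPM as deposited it was called (0.32, limma adjusted p = 0.0122), and with the number of detected genes as a term it was -0.32 (limma adjusted p = 0.204). The 8 libraries were IH replicate 2 at 4:30, replicate 3 at 10:30 and replicate 2 at 16:30, and normoxia replicates 1 and 3 at 1:30, replicate 2 at 4:30, replicate 2 at 13:30 and replicate 1 at 16:30. Hcn2 changed by 0.09, Kcnip2 by -0.02, Kcnh2 by -0.04 and Cacna1c by -0.09, with limma adjusted p-values of 0.442 to 0.898. The 95% interval of the change ran from -0.15 to 0.11 for Kcnh2, from -0.21 to 0.18 for Kcnip2 and from -0.27 to 0.09 for Cacna1c. The 3 genes with the highest levels in heart thus had the lowest estimates, all under 0 with scaling and all slightly above 0 on the TPM as deposited (0.03 to 0.11).

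The count in heart was 4 higher and 0 lower of 9 tested, where 28.0% of all genes were higher and 17.3% lower after IH by the same limma test. At an unadjusted p under 0.05, 0 of the 9 were lower and Kcnj2 joined those that were higher. The median change of the 9 was 0.20, against 0.04 for all genes. On the TPM as deposited these medians were 0.32 and 0.15, and the share of called genes that were higher went from 61.8% to 85.4%. That share was 30.7% with no minimum level and 37.4% with a 1.5-fold change required. With the number of detected genes as a further term, Kcnj2 (-0.32), Hcn2 (-0.25), Kcnq1 (-0.22), Kcnd2 (-0.20) and Hcn4 (-0.12) changed sign, Kcna5 fell to 0.13, and 0 of the 9 were called by limma, while the calls among all genes dropped from 5780 to 257. The heart rises therefore cannot be told apart from the difference in detected genes. Without replicate 1 of both treatments Hcn4 alone remained called (0.29, limma adjusted p = 0.0282), while Kcna5 (0.36), Kcnd2 (0.27, limma adjusted p = 0.0664) and Kcnq1 (0.27, limma adjusted p = 0.108) lost their calls at changes about as large as before. Without replicate 3 Kcna5 lost its call (0.20, limma adjusted p = 0.147) while Cacna1c was called lower (-0.24, limma adjusted p = 0.0207). All 4 rises kept their call when any 1 of the 48 libraries was left out, and without normoxia replicate 3 at 7:30 they were 0.34 (Hcn4), 0.28 (Kcnq1), 0.25 (Kcna5) and 0.25 (Kcnd2).

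**Figure D2:**
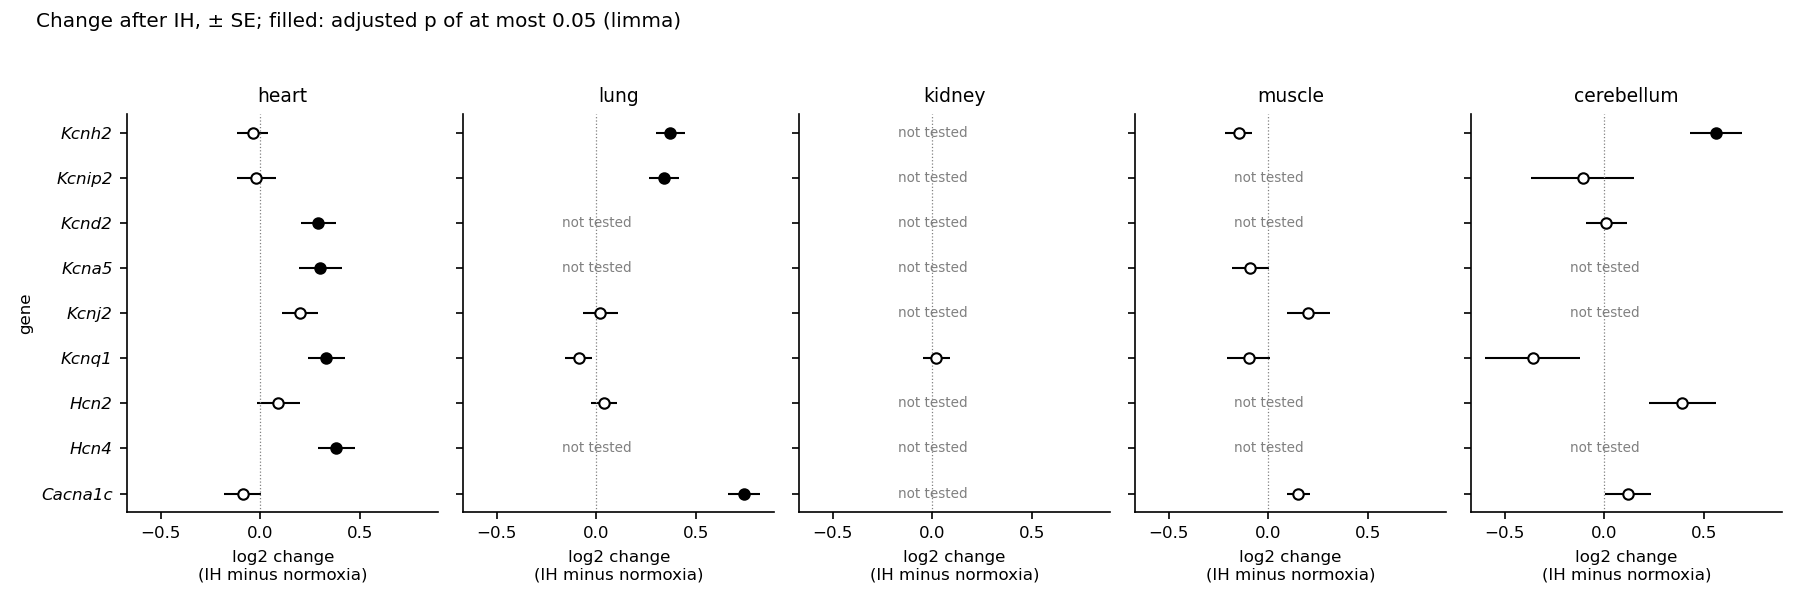
Log2 change of each gene after IH (x axis, IH minus normoxia, ± SE, 24 libraries per treatment) in 5 tissues; filled points passed an adjusted p of 0.05 in limma and genes under a mean of 1 TPM are marked as not tested. Filled points are Kcnd2, Kcna5, Kcnq1 and Hcn4 in heart, Kcnh2, Kcnip2 and Cacna1c in lung and Kcnh2 in cerebellum.

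Markers of several cell types moved in heart together with these genes. After IH, 4 of 4 endothelial markers were called higher (sum 170 ± 47.0 to 246 ± 42.8 TPM, most abundant Pecam1), as were 4 of 4 fibroblast markers (430 ± 84.8 to 605 ± 81.1, Dcn) and 4 of 4 smooth muscle markers (160 ± 49.6 to 268 ± 64.1, Tagln in normoxia and Acta2 after IH). Of the working cardiomyocyte markers 3 of 8 were higher (18844 ± 3467 to 19820 ± 2875 TPM, Tnnt2), of the sinoatrial markers 1 of 3 tested (6.83 ± 1.95 to 7.39 ± 1.74, Tbx3), and 0 of 4 atrial markers (3906 ± 1896 to 4712 ± 1254, Nppa) and 0 of 4 ventricular markers (16860 ± 3032 to 15932 ± 2018, Myl2). None of the 5 tested skeletal muscle markers, 4 blood and immune markers or 2 tested lung epithelium markers changed by limma, while 1 of 4 hepatocyte markers was higher. Neuronal markers reached the 1 TPM minimum in heart only through IH replicate 2 at 10:30, so nothing is read from their test. In bulk tissue, more cells of a type and more RNA per cell cannot be told apart, and the part of these markers in the rises was not tested. The share of atrium also differed between libraries: replicate 2 at 7:30 held 74.7 TPM of the atrial light chain Myl7 in normoxia and 60.4 after IH, where its fellow replicates had 541 to 1150. Transcript length moved with the change too, since 10.8% of genes with a longest transcript under 2000 bases were called higher in heart, 28.7% of those from 2000 to 4000 (4 of the 9 genes), 40.1% of those from 4000 to 6000 (3 genes) and 37.9% of longer ones (2 genes). The part of length in the result was not tested.

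Most other genes of cardiac excitation that were tested rose too. Of 31 further channel, pump, exchanger and junction genes, 25 could be tested in heart, and limma called 15 higher and 1 lower after IH at an adjusted p of at most 0.05, where 28.0% of all genes were higher and 17.3% lower. The other 9 were not called, and the median change of the 25 was 0.28. Among the largest rises were those of Slc8a1, the sodium-calcium exchanger (0.70, SE 0.143, limma adjusted p = 1.1e-04), and Abcc9, the sulfonylurea receptor of the ATP-sensitive potassium channel (0.51, SE 0.120, limma adjusted p = 6.3e-04). The fall was that of Trpm4, a calcium-activated cation channel (-0.20, SE 0.081, limma adjusted p = 0.0384), and it was lost on the TPM as deposited (-0.08), without replicate 1 (-0.14, limma adjusted p = 0.377), without replicate 2 (-0.10, limma adjusted p = 0.490) and, at the same size, without IH replicate 2 at 10:30, normoxia replicate 3 at 13:30 and normoxia replicate 2 at 19:30 (limma adjusted p = 0.0574). Within replicate 3 alone its change was 0.14. The estimate for Trpm4 was larger but not called with the number of detected genes as a term (-0.45, limma adjusted p = 0.0743). Without normoxia replicate 3 at 7:30 Trpm4 was called at -0.25 (limma adjusted p = 0.00193). With the number of detected genes as a term the median of the 25 became -0.20, and these changes cannot be told apart from the difference in detected genes either. Without normoxia replicate 3 at 7:30, Kcne1, the subunit that slows Kcnq1 channels, was called lower (-0.28, limma adjusted p = 0.0182), as was Cacna1g (-0.26, limma adjusted p = 0.0343). Both were also called lower without replicate 3 (-0.35, limma adjusted p = 0.0170, and -0.41, limma adjusted p = 0.00430). Kcne1 was called too with a time point term (-0.25, limma adjusted p = 0.0373) and without the 3 libraries named for Trpm4 (-0.28, limma adjusted p = 0.0355).

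**Figure D3:**
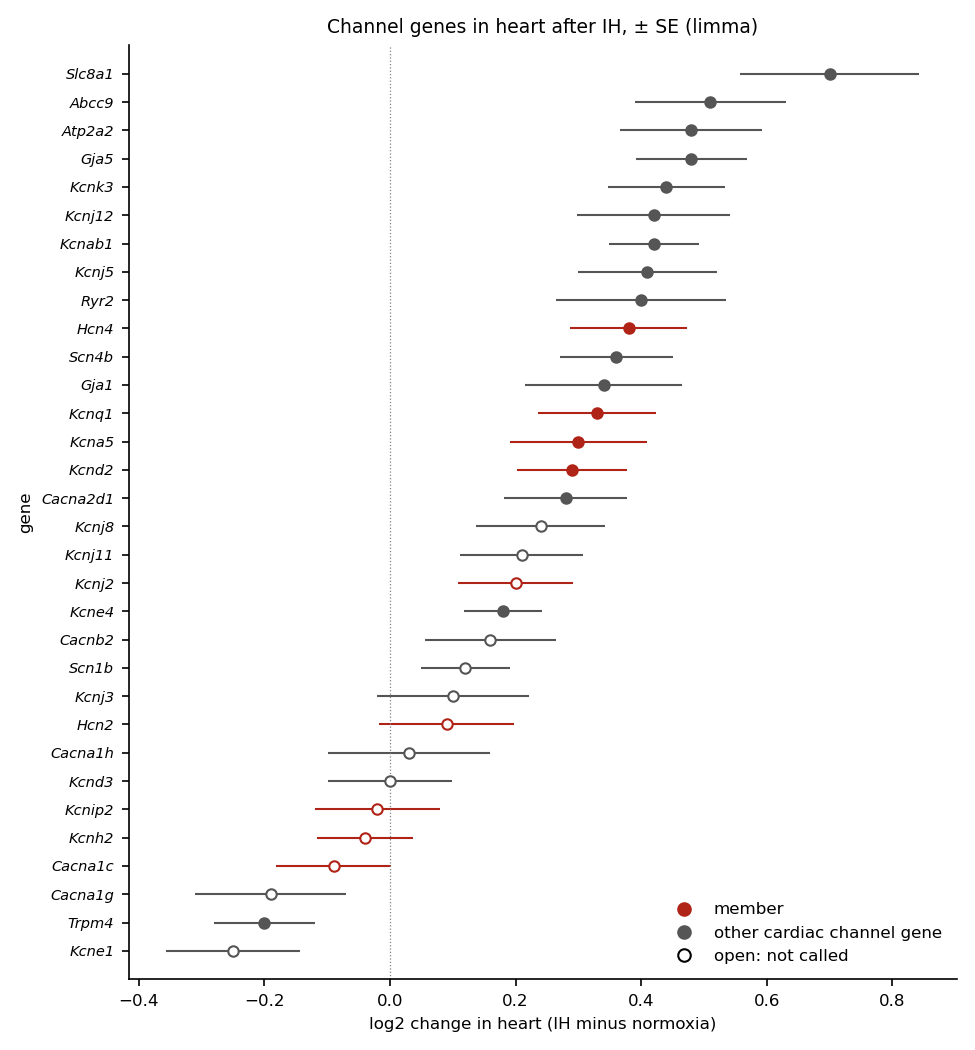
Log2 change in heart (x axis, IH minus normoxia, ± SE) of the 9 ion channel genes (red) and of other tested channel genes (grey), sorted by size; open points did not pass an adjusted p of 0.05 in limma. The changes run from -0.25 (Kcne1) to 0.70 (Slc8a1), and the 9 genes lie spread among the others.

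In lung Cacna1c, Kcnh2 and Kcnip2 rose, none of which was called in heart, and of the 4 genes called in heart only Kcnq1 could be tested. Cacna1c had a lowest, median and highest level of 4.65, 6.71 and 8.31 TPM in normoxia and of 7.56, 13.2 and 30.8 after IH. Every IH library but the lowest thus lay above the normoxia range. Kcnh2 went from 3.83, 4.67 and 7.71 TPM to 5.69, 8.10 and 10.4, and Kcnip2 from 0.507, 0.884 and 1.38 TPM to 0.718, 1.52 and 2.56, in both cases with partial overlap. Cacna1c rose by 0.74 (SE 0.080, 1.67-fold, limma adjusted p = 4.0e-11), the only change of at least 1.5-fold among the 6 genes tested in lung with this scaling. On the TPM as deposited Kcnh2 passed that size as well (0.66). Kcnh2 rose by 0.37 (SE 0.072, 1.30-fold, limma adjusted p = 1.1e-05) and Kcnip2 by 0.34 (SE 0.076, 1.27-fold, limma adjusted p = 1.1e-04). Kcnip2 passed the minimum of 1 TPM only through its IH libraries, with means of 0.910 TPM in normoxia and 1.58 after IH, and was also called with no minimum (0.34, limma adjusted p = 1.4e-04). All 3 were higher after IH at 8 of 8 time points, and all 3 kept their call when any 1 of the 48 lung libraries was left out. Transcript length moved with the change in lung as well. Of genes with a longest transcript under 2000 bases, 22.0% were called higher and 50.0% lower. From 2000 to 4000 bases, where Kcnip2 lies (3114 bases), 25.8% were called higher and 47.7% lower. From 4000 to 6000 bases, where Kcnh2 lies (4221 bases), these shares were 34.2% and 33.0%. From 6000 bases on, where Cacna1c lies (13162 bases), 44.4% were called higher and 19.4% lower. The part of length in these rises was not tested.

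Of the 9 genes 6 could be tested in lung, where 3 were higher (28.9% of all genes were) and 0 lower (41.5% of all genes were; 0 of the 6 were lower at an unadjusted p under 0.05 in limma). Among the 3 was Kcnip2, tested only through its IH libraries, so nothing is read from this count. Kcnj2 (0.02), Hcn2 (0.04) and Kcnq1 (-0.09) did not pass, although Kcnq1 was called lower without replicate 3 (-0.24, limma adjusted p = 0.0152). These calls depended on the scaling: the median of all genes was -0.08 with scaling and 0.21 on the TPM as deposited, the share of called genes that were higher was 41.1% and 83.7%, and on the deposited TPM all 6 genes were called higher, Kcnq1 (0.20) with its sign turned. With the number of detected genes as a term Cacna1c kept its call (0.28, limma adjusted p = 0.0103), Kcnh2 (0.18, limma adjusted p = 0.167) and Kcnip2 (0.12, limma adjusted p = 0.389) lost theirs, and Hcn2 (0.31, limma adjusted p = 0.00316) and Kcnq1 (0.28, limma adjusted p = 0.00293) were called higher.

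Cardiomyocyte transcripts, which mouse lung holds in the muscle sleeves of its pulmonary veins, rose in lung as well. Of the 8 working cardiomyocyte markers 7 were called higher after IH, their sum went from 281 ± 84.4 to 489 ± 154 TPM (Tnnt2 led), and its median went from 1.40% to 2.67% of the heart. With that sum as a further term, Cacna1c (1.03, limma adjusted p = 1.2e-13), Kcnh2 (0.28, limma adjusted p = 0.00838) and Kcnip2 (0.30, limma adjusted p = 0.00818) kept their calls, and Hcn2 turned to -0.17 (limma adjusted p = 0.0481). Of the smooth muscle markers in lung 3 of 4 were called lower, while their sum hardly moved (283 ± 51.1 to 274 ± 70.7 TPM, medians 296 and 304, Tagln led). All 4 endothelial markers were called lower (869 ± 180 to 714 ± 181 TPM, Pecam1 led), as were 2 of 4 blood and immune markers (37687 ± 14450 to 34919 ± 20305, Hbb-bs led). Of the 6 tested skeletal muscle markers 2 were called higher (49.1 ± 96.8 to 136 ± 214 TPM, Ckm led in normoxia and Acta1 after IH). Of the atrial markers 1 of 4 and of the ventricular markers 1 of 3 tested were higher, and of 4 fibroblast markers 1 was higher and 1 lower.

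The markers of lung epithelium shifted most in TPM. All 4 were called lower after IH, their sum went from 170561 ± 23339 to 124059 ± 55578 TPM (Scgb1a1 led), and several IH libraries stood far apart from the lowest normoxia library (133106 TPM), down to 33318 TPM. Every IH library below that normoxia value was a replicate 1 or 2. Within replicate 3, where none was, the change of Cacna1c was 0.38, that of Kcnh2 0.32 and that of Kcnip2 0.25, against 0.83, 0.56 and 0.49 within replicate 1 and 0.98, 0.22 and 0.27 within replicate 2. The part of these markers in the lung rises was not tested.

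The change after IH was then compared between heart and lung in a model with both tissues, since a call in one tissue and not in the other is no test of a difference. Of 6 genes tested, 4 differed, where 65.2% of all genes did. The change in heart minus that in lung was -0.83 for Cacna1c (SE 0.122, limma adjusted p = 7.9e-09), -0.41 for Kcnh2 (SE 0.105, limma adjusted p = 3.8e-04) and -0.36 for Kcnip2 (SE 0.123, limma adjusted p = 0.00808), that is, a rise in lung beside estimates near 0 in heart, with Kcnip2 tested only because its IH libraries lifted its mean in lung over 1 TPM. For Kcnq1 it was 0.42 (SE 0.117, limma adjusted p = 0.00111), a rise in heart beside an uncalled -0.09 in lung. The median over all genes was 0.15 with scaling and -0.03 on the TPM as deposited, where 42.8% instead of 66.7% of the called differences were positive and Kcnq1 lost its call (0.24, limma adjusted p = 0.118). With the number of detected genes as a term, which fell with IH in heart and rose in lung, Kcnq1 turned to -0.51 and was called in that direction (limma adjusted p = 0.00898). Kcnh2 and Kcnip2 lost their calls with that term (-0.32 and -0.35), and Hcn2 (-0.56) and Kcnj2 (-0.58) gained one. Without replicate 1 of both treatments Kcnip2 (-0.22, limma adjusted p = 0.271) and Kcnq1 (0.21, limma adjusted p = 0.217) were smaller and lost their calls. Cacna1c was called under every alternative tried here.

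In cerebellum, Kcnh2 had a lowest, median and highest level of 6.91, 11.4 and 24.2 TPM in normoxia and of 6.70, 16.5 and 37.7 after IH. The groups overlapped widely and the upper end reached higher after IH. Kcnh2 rose by 0.56 (SE 0.131, 1.47-fold, limma adjusted p = 0.00258), at 8 of 8 time points. The call held under omission of any single library, and was lost without replicate 1 (0.50, limma adjusted p = 0.132) or replicate 2 (0.47, limma adjusted p = 0.245). Kcnh2 changed by 0.69, 0.74 and 0.25 within replicate numbers 1, 2 and 3. It was the 1 gene called of 6 tested, where 9.76% of all genes were higher and 5.24% lower, and the median change of the 6 was 0.06 against -0.01 for all genes. None of the 6 was lower by limma, adjusted or at an unadjusted p under 0.05. Hcn2, at a median of 41.5 TPM in normoxia and 54.7 after IH, changed by 0.39 (SE 0.168, limma adjusted p = 0.109), and was called at 0.48 (limma adjusted p = 0.0139) without IH replicate 3 at 1:30. Its change within replicate numbers 1, 2 and 3 was 0.71, 0.69 and -0.23, and without replicate 3 it was called at 0.69 (limma adjusted p = 8.3e-04). Kcnj2, at means of 1.05 TPM in normoxia and 0.841 after IH, missed the minimum of 1 TPM with all libraries. Without replicate 3 it passed the minimum and was called lower (-0.43, limma adjusted p = 0.0143). It lay so near the minimum, with normoxia the higher group, that nothing is read from this call. Kcnd2, the most abundant potassium channel gene of the 9 there, changed by 0.01.

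Cerebellum libraries also held cardiomyocyte transcripts, to differing degrees. The cardiomyocyte marker sum (8 genes, Tnnt2 led) had a median of 4.01% of the heart mean in normoxia (0.475% to 15.9%) and of 2.29% after IH (0.653% to 35.8%), and 7 of 48 libraries lay above 10%. The median share of 4.01% of the heart level equals 2.04 TPM of Kcnip2, where the median in cerebellum was 3.36 TPM, but 0.913 TPM of Kcnh2 and 0.0929 TPM of Kcnd2, where the medians were 11.4 and 46.5 TPM. These values take the heart profile as fixed, and whether heart tissue was the source of the transcripts was not tested. In IH replicate 3 at 1:30, the library highest in these markers, Kcnip2 reached 20.0 TPM while Kcnd2 (9.58 TPM) and Hcn2 (6.41 TPM) were the lowest of all cerebellum libraries after IH. Across the libraries Kcnip2, Kcna5 and Kcnq1 were higher, and Kcnh2 and Hcn2 lower, where the marker sum was larger. With that sum as a term Kcnh2 kept its rise (0.44, limma adjusted p = 0.00207) and the change of Hcn2 fell to 0.20 (limma adjusted p = 0.181), whereas without the 7 libraries Hcn2 was called (0.43, limma adjusted p = 0.0341).

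**Figure D4:**
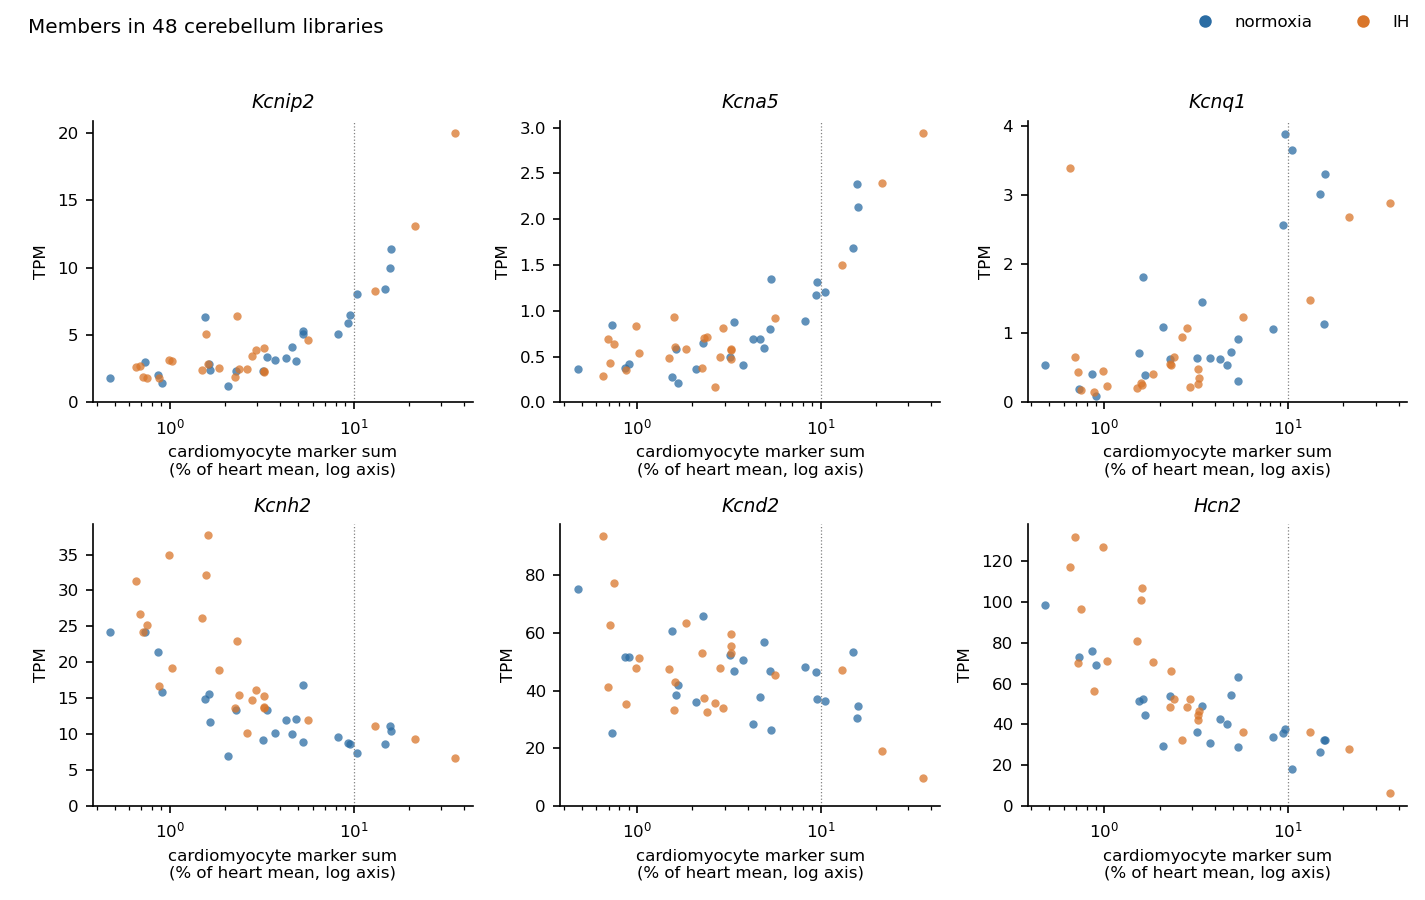
TPM of 6 genes in the 48 cerebellum libraries against the summed TPM of 8 cardiomyocyte markers, as percent of the mean of the heart in normoxia (log axis; the dotted line marks 10%; blue normoxia, orange IH). Kcnip2 climbs to 20.0 TPM in the library at 35.8%, whereas Kcnd2 and Hcn2 are at their lowest after IH in that library.

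Muscle, kidney and liver gave no call with the main settings. In muscle 5 genes were tested and limma called 0 higher (5.48% of all genes) and 0 lower (4.89%), while at an unadjusted p under 0.05 Cacna1c was higher (0.15, p = 0.0116, limma adjusted p = 0.0841) and Kcnh2 lower (-0.15, p = 0.0297, limma adjusted p = 0.152). Cacna1c, at 1.13 ± 0.249 TPM in normoxia and 1.40 ± 0.332 after IH, was called without IH replicate 3 at 16:30 (0.17, limma adjusted p = 0.0409) or without normoxia replicate 1 at 1:30 (0.17, limma adjusted p = 0.0368). On the TPM as deposited it was also called (0.22, limma adjusted p = 0.0279), a scaling that took the share of higher calls among all genes from 52.9% to 95.8%. Hcn2 in muscle, at 1.06 TPM in normoxia and 0.895 after IH, missed the minimum of 1 TPM. It was called lower with no minimum (-0.22, limma adjusted p = 1.4e-04). Without replicate 3 it passed the minimum and was called lower too (-0.22, limma adjusted p = 0.00516). It lay so near the minimum, with normoxia the higher group, that nothing is read from this second call. In kidney only Kcnq1 was tested, at 10.9 ± 1.75 and 11.0 ± 3.05 TPM, and limma called 0 genes higher (8.25% of all genes) and 0 lower (11.5%), also at an unadjusted p under 0.05 (change 0.02). In liver all 9 genes had a mean under 1 TPM and none was tested. The highest liver values, 17.5 TPM of Kcnip2 and 7.86 TPM of Kcnh2, came from IH replicate 2 at 13:30, in which Myh6 stood at 1507 TPM.

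Whether the genes followed a 24-hour rhythm was tested with cosine and sine terms over both treatments. In heart 1 of the 9 genes, Kcnh2, was called, where 7.25% of all genes were, and the median amplitude of the 9 was 0.07, the same as that of all genes (0.07). Kcnh2 averaged 20.2 ± 3.33 TPM at 1:30 and 26.7 ± 8.54 at 7:30 in normoxia (n = 3), and after IH it was lowest at 4:30 (20.9 ± 2.49) and highest at 13:30 (33.1 ± 2.87). The spread within a time point was thus about as large as the swing over the day in normoxia, and the only libraries as high as the 3 IH replicates at 13:30 were replicate 1 at 7:30 in both treatments. The fitted amplitude was 0.18 on the log2 scale (SE 0.048, 1.29-fold from trough to peak), with a peak at 11.3 ± 1.00 h (limma adjusted p = 0.0300). Clock genes measured in the same libraries swung much further: Arntl, the core activator, by 1.51 with a peak at 23.7 h, Nr1d1, a core repressor, by 1.64 at 7.22 h, Dbp, a clock output factor, by 1.87 at 10.1 h, and Per2, a core repressor, by 1.25 at 13.2 h. Klf15, a regulator of Kcnip2 in the mouse heart, had an amplitude of 0.30 and a peak at 12.8 h, while Kcnip2 itself had 0.05 (limma adjusted p = 0.962).

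The Kcnh2 rhythm lay close to the threshold. Its adjusted p in limma was 0.456 on the TPM as deposited (amplitude 0.16), 0.533, 0.0703 and 0.0987 without replicates 1, 2 and 3 (0.13, 0.22 and 0.20), and 0.0521 (0.19) without 3 of the libraries with transcripts of other tissues, IH replicate 2 at 10:30, normoxia replicate 3 at 13:30 and normoxia replicate 2 at 19:30. The adjusted p rose to between 0.0509 and 0.0553 when any 1 of 5 libraries was left out (IH replicate 2 at 1:30, replicates 2 and 3 at 13:30 and replicate 1 at 22:30, and normoxia replicate 1 at 10:30). Without normoxia replicate 3 at 7:30, the library low in cardiomyocyte transcripts, it was 0.00352 at an amplitude of 0.20. The next by p, Kcna5 in heart, had the larger amplitude of 0.20 and a peak at 14.4 h (limma p = 0.0274, limma adjusted p = 0.194), and at an unadjusted p under 0.05 these were the 2 of 9. Hcn2 was called without replicate 3 (0.20, limma adjusted p = 0.0481).

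Tested in each treatment alone, 0 of the 9 genes had a rhythm in heart by limma in normoxia (0.616% of all genes did; 0 at an unadjusted p under 0.05) or after IH (4.37% did; 1, Kcnh2, at an unadjusted p under 0.05). A rank test against cosine curves also called 0 in each, with Kcnh2 at an unadjusted p of 0.0377 in normoxia. The amplitude of Kcnh2 was 0.16 in normoxia with a peak at 11.6 h and 0.20 after IH with a peak at 11.1 h. The difference of the rhythm between treatments was called by limma for 0 of the 9 genes (0% of all genes, 72 of them at an unadjusted p under 0.05, and 0 of the 9), with sizes from 0.05 (Kcnh2) to 0.24 (Hcn2). No gain or loss of a rhythm after IH was thus detected for these genes. The test called no gene at all, also not Dbp at a size of 0.50 (limma p = 0.00142), so a missing call says little here. Of the 25 tested other channel genes 2 were rhythmic in heart, the gap junction genes Gja1 (amplitude 0.37, peak at 1.20 h, limma adjusted p = 0.00108) and Gja5 (0.21, peak at 0.356 h, limma adjusted p = 0.0261), at a median amplitude of 0.11 for the 25. The Gja5 call was lost on the TPM as deposited, with the linear cosine fit and with the number of detected genes as a term. It was also lost without those 3 libraries and when replicate 1, 2 or 3 was left out. In the log2 fits its amplitudes were 0.16 to 0.25, with limma adjusted p-values up to 0.247. Without normoxia replicate 3 at 7:30 there were 4, with Kcne1 (0.27, limma adjusted p = 0.00696) and Kcnj8 (0.19, limma adjusted p = 0.0489) added. Kcne1 was also called rhythmic on the TPM as deposited (0.23, limma adjusted p = 0.0305) and without replicate 3 (0.28, limma adjusted p = 0.0324). The linear cosine fit, a least-squares F test without limma, called Kcne1 as well (adjusted p = 0.0390 by that F test).

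**Figure D5:**
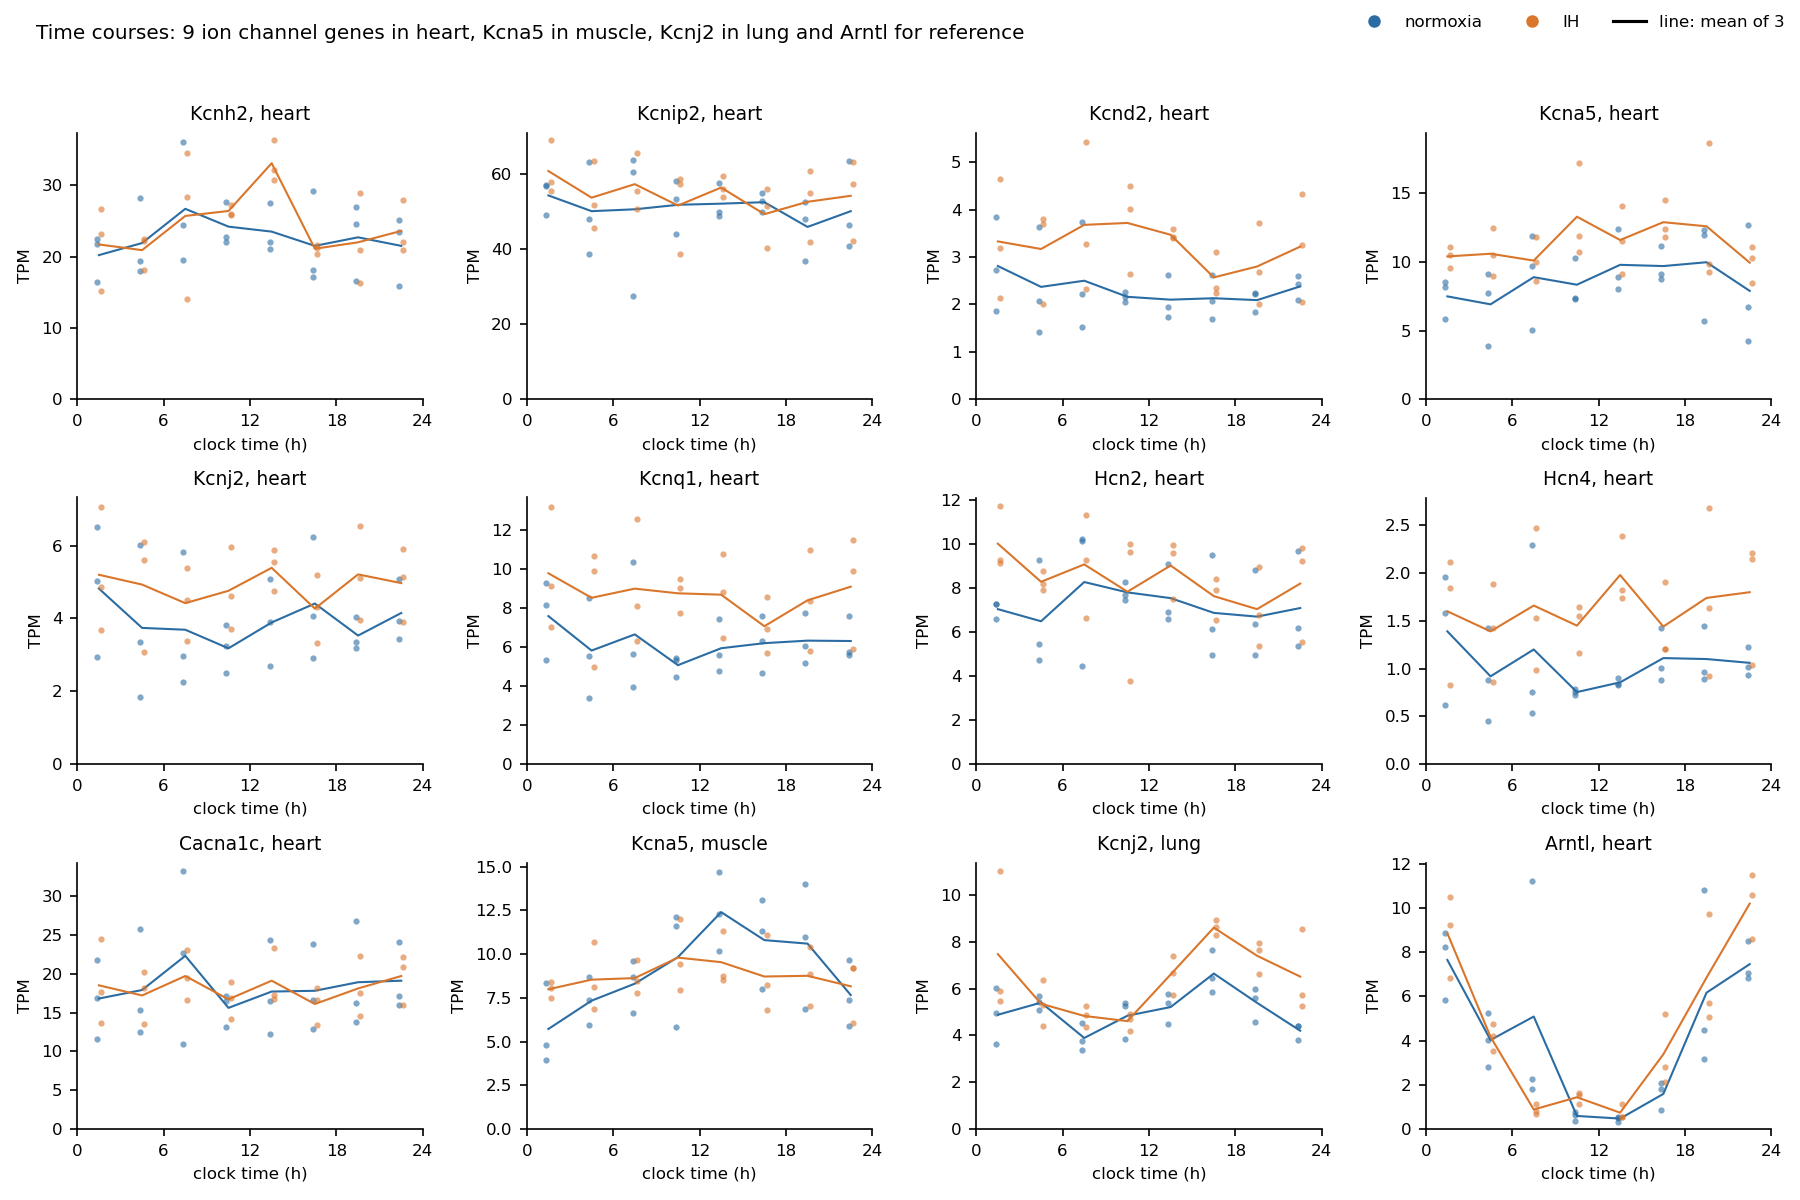
TPM against clock time (h) for the 9 genes in heart, Kcna5 in muscle, Kcnj2 in lung and the clock gene Arntl in heart; points are libraries, lines join the means of 3 replicates (blue normoxia, orange IH). Arntl swings from trough to peak in both treatments, with normoxia replicate 3 at 7:30 (11.2 TPM) out of line, while most ion channel genes in heart run flat and Kcnh2 after IH peaks at 13:30 (33.1 TPM).

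Outside heart, muscle and lung each had 1 rhythmic member of the set. In muscle, Kcna5 averaged 5.72 ± 2.34 TPM at 1:30 and 12.4 ± 2.25 at 13:30 in normoxia (n = 3), and 7.99 ± 0.434 and 9.54 ± 1.56 after IH. The difference between these time points exceeded the spread of the replicates in normoxia and was smaller after IH. Whether the rhythm in muscle differed between treatments was not tested. The amplitude over both treatments was 0.25 (SE 0.054, 1.42-fold from trough to peak), with a peak at 13.9 ± 0.813 h (limma adjusted p = 0.00173), 1 of 5 genes tested where 19.6% of all genes were called. The call was kept without any single library and lost without replicate 3 (0.19, limma adjusted p = 0.0790), when Kcnq1 was called instead (0.29, limma adjusted p = 0.0382). Cacna1c in muscle (0.11, limma adjusted p = 0.0887) was called at 0.12 when IH replicate 1 at 4:30, IH replicate 2 at 13:30 or normoxia replicate 3 at 1:30 was left out, with limma adjusted p-values of 0.0421 to 0.0487. The peaks of Kcna5 in muscle and, uncalled, in heart (14.4 h) lay close to each other, a likeness that was not tested.

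In lung, Kcnj2 averaged 3.89 ± 0.576 TPM at 7:30 and 6.64 ± 0.915 at 16:30 in normoxia, and 4.61 ± 0.366 at 10:30 and 8.60 ± 0.321 at 16:30 after IH (n = 3). Replicates at the low and the high time point did not overlap in either treatment. Its amplitude was 0.23 (SE 0.053, 1.38-fold from trough to peak) and its peak at 18.0 ± 0.865 h (limma adjusted p = 0.00366), 1 of 6 genes tested where 19.1% of all genes were called. It was kept without any single library and lost without replicate 1 (0.22, limma adjusted p = 0.113), and without replicate 2 Kcnip2 was called too (0.22, limma adjusted p = 0.0316). In kidney 0 of 1 gene was called (26.7% of all genes; 0 at an unadjusted p under 0.05 in limma), and in cerebellum 0 of 6 (0.396%; 2 at an unadjusted p under 0.05 in limma, Cacna1c at an amplitude of 0.24 with a peak at 5.09 h and Kcnq1 at 0.42 with a peak at 4.25 h). The median amplitude was 0.09 in lung for the 6 genes and for all genes, 0.11 and 0.07 in muscle, and 0.21 and 0.13 in cerebellum. The cardiomyocyte marker sum in cerebellum differed by clock time too. In normoxia it was 2964, 1555 and 2807 TPM at 4:30 and 292, 306 and 313 TPM at 22:30. After IH it was 450, 349 and 614 TPM at 4:30 and 130, 186 and 303 TPM at 22:30. The part of these transcripts in the amplitudes in cerebellum was not tested.

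Over the 16 means of time point and treatment in heart, the profiles most like that of Kcnh2 among 8127 genes were those of Coq10b (Pearson r = 0.87), Slc25a33 (0.86) and Usp2 (0.85), which serve coenzyme Q function, mitochondrial pyrimidine transport and deubiquitination. With Dbp the correlation was 0.73, with Klf15 0.64, with Hcn2 0.44, with Kcnip2 0.43, with Cacna1c and with the clock gene Nr1d1 0.41, with Kcna5 0.17 and with Kcnq1 -0.01. Kcnd2, Kcnj2 and Hcn4 lay under the 5 TPM required for this comparison. These values describe 16 points that share libraries and scaling, and carry no p.

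Because Kcnj2 in lung, Kcna5 in muscle and Kcnh2 in heart were called rhythmic, the promoters were searched for letters that clock factors are known to bind. RefSeq start sites gave 10 windows of 250 bases for 8 of the 9 genes (GRCm38.p6), with 3 windows for Cacna1c. On both strands, CACGTG (E-box) was found in 1 of the 10, CACGTT in 0 and AGGTCA in 1 (Hcn2, which held it 2 times), and these motifs occur in 6.02%, 3.85% and 14.0% of all 32851 windows of that length. The E-box lay in the window of Kcnj2, 84 bases before the start site, at chr11:111065914-111066163 on the plus strand and upstream of the annotated exons of the gene. The windows of Kcnh2 (chr5:24329592-24329841, minus strand, inside the span of the gene between its exons) and Kcna5 (chr6:126535556-126535805, minus strand) held none of these letters. The windows of Kcnj2 and, for comparison, of Kcnh2 follow, 5′ to 3′, with the E-box in capitals. A match is a description of the sequence and does not show that a factor binds there.
Kcnj2: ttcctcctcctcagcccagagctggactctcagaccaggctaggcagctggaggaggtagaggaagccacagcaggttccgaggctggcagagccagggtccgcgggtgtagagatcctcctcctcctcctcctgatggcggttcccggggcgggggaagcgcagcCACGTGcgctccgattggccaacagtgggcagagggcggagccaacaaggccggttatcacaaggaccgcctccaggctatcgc
Kcnh2: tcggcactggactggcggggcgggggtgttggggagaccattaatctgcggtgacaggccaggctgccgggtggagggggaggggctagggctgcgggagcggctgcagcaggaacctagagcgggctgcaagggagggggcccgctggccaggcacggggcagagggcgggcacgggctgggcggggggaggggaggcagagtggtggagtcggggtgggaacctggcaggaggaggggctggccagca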

How the data were processed

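RNA from 6 tissues of mice in normoxia or after IH had been sequenced as stranded poly(A) libraries. The deposited values are TPM that the authors estimated per transcript with Kallisto against the Ensembl mouse transcriptome and summed to genes, in 1 table per tissue and treatment. The authors ran DESeq2 on estimated counts, which were not used here. TPM keep no read counts, so the counting error of a value was not modelled.

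Each library was scaled by the median of its ratios to the genes' geometric means, values were put on log2(TPM + 0.5), and genes whose mean over the libraries compared reached 1 TPM (for the difference between heart and lung, in each of these tissues) were tested with limma 3.58.1 (R 4.3.3, with a trend of variance on level) and Benjamini-Hochberg adjusted p-values over all genes tested, two-sided, with calls at 0.05. Comparisons were IH minus normoxia in each tissue, cosine and sine terms of 24 hours with a treatment term (an F test, in heart also within each treatment and for the difference between treatments), heart minus each other tissue in normoxia, and the difference of the IH change between heart and lung. Fold changes are on the log2(TPM + 0.5) scale. A rank test against cosine curves (Python 3.11.15, numpy 2.4.6, pandas 2.3.3) was run in heart, and figures were drawn with matplotlib 3.10.9. The fits were tested on simulated data.

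All 9 genes are named, 5 clock reference genes, up to 3 called rises, 3 called falls and 3 called rhythms of largest size among the 31 other channel genes in heart, and the 3 genes most correlated with a gene rhythmic in heart. Kcne1, Cacna1g and Kcnj8 were named after their values were seen, since leaving out 1 heart library changed their calls. Further channel genes are named where another setting turned their sign. Some channel genes that enter the counts and medians are not reported here by name or in the figures. The genes and lists were chosen with earlier results of these data known. Alternatives were the TPM as deposited, pseudocounts of 0.1 and 1, a minimum of 5 TPM or none, a 1.5-fold change, a term for time point, for the replicate number or for the genes detected, a linear cosine fit, and leaving out each replicate. Chosen after seeing the data were a term for cardiomyocyte markers and leaving out libraries with transcripts of other tissues (3 in heart), the heart library low in cardiomyocyte markers and any single library.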

Additional observations from a re-analysis of the deposited data

Results flagged for a closer look

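The change after IH differed between heart and lung for 4 of the 6 genes tested in both tissues, by limma's test of the difference itself (24 libraries per tissue and treatment). Of all genes 65.2% did, so the count says nothing particular about these genes. Kcnip2 was tested only because its IH libraries lifted its mean in lung over 1 TPM (0.910 TPM in normoxia and 1.58 after IH), so nothing is read from its call. The change in heart minus that in lung was -0.41 for Kcnh2, -0.36 for Kcnip2 and -0.83 for Cacna1c on the log2 scale, with a rise in lung and estimates of -0.04, -0.02 and -0.09 in heart, and 0.42 for Kcnq1, with a rise in heart and -0.09 in lung. The Kcnq1 difference was not called on the TPM as deposited (0.24) or without replicate 1 (0.21). It turned to -0.51 with the number of detected genes as a term and was called in that direction (limma adjusted p = 0.00898). Kcnip2 was not called without replicate 1 (-0.22), and with the term for detected genes neither Kcnip2 (-0.35) nor Kcnh2 (-0.32) was. The number of detected genes fell after IH in heart and rose in lung, and its part cannot be told apart from that of the treatment. The cardiomyocyte markers rose in lung (7 of 8 called) and in heart (3 of 8), and those of lung epithelium fell in lung (4 of 4 called). Endothelial markers were called higher in heart (4 of 4) and lower in lung (4 of 4). Smooth muscle markers were also called higher in heart (4 of 4) and lower in lung (3 of 4). The part of these markers in the difference was not tested.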

How the results depend on the processing

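Of 249 values of the main counts under another setting, 212 stayed within 1.5 times the count reported, and of 1446 values for single genes over 143 results 1335 kept direction and side of the threshold, 63 fell short of it, 27 newly passed and 21 turned. The depth of the single libraries cannot be read from TPM, and where a cause is not shown by the setting itself, the cause was not tested.

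Of the 9 genes, the count changed after IH in heart was 4, and 2 with a mean of at least 5 TPM (fewer genes tested), 0 with a 1.5-fold change required, 0 with the genes-detected term and 1 to 4 when a replicate was left out. In lung it was 3, and 6 on the TPM as deposited, 5 with no minimum, 1 with a 1.5-fold change and 3 to 4 without a replicate. Liver gave 1 in place of 0 with no minimum (Kcnq1), and muscle 1 in place of 0 on the deposited TPM (Cacna1c), 1 with no minimum (Hcn2) and 0 to 1 without a replicate. In cerebellum the count was 1, and 0 with a 1.5-fold change, 2 without IH replicate 3 at 1:30, 2 without the libraries high in cardiomyocyte markers and 0 to 3 without a replicate. The 3 include Kcnj2, which lay near the minimum of 1 TPM.

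The count with a rhythm in heart was 1, and 0 on the TPM as deposited, 0 with the cosine fit on linear TPM, 0 without 3 of the libraries with markers of other tissues (IH replicate 2 at 10:30, normoxia replicate 3 at 13:30 and replicate 2 at 19:30) and 0 to 1 without a replicate, and in lung it was 1, and 0 to 2 without a replicate. The count higher in heart fell with a mean of at least 5 TPM, where fewer genes were tested, to 3 against lung, 3 against liver, 3 against kidney, 3 against muscle and 3 against cerebellum. The count that differed between heart and lung was 4, and 2 to 4 without a replicate. Of the other channel genes 16 changed in heart, and 1 with a 1.5-fold change, 1 with the genes-detected term and 11 to 14 without a replicate, and 2 were rhythmic, and 1 without these 3 libraries, 4 without normoxia replicate 3 at 7:30 and 1 to 3 without a replicate.

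The number of genes detected could hardly be told apart from treatment in heart. With that genes-detected term the log2 change in heart turned, among genes called with or without it, for Kcnd2 (-0.20), Kcnq1 (-0.22), Hcn4 (-0.12), Kcnj5 (-0.20), Kcnj12 (-0.14), Abcc9 (-0.19), Kcnk3 (-0.04), Cacna1h (-0.70), Cacna2d1 (-0.21), Ryr2 (-0.45), Slc8a1 (-0.19), Atp2a2 (-0.19), Gja1 (-0.36) and Gja5 (-0.06), and among uncalled ones of the 9 for Kcnj2 (-0.32) and Hcn2 (-0.25), as did the difference between heart and lung for Kcnj2 (-0.58), Kcnq1 (-0.51) and Hcn2 (-0.56). In lung, Kcnq1 turned to 0.20 on the TPM as deposited and 0.28 with the genes-detected term, and Hcn2 to -0.17 with the cardiomyocyte marker term. The difference of heart from lung turned to -0.36 for Kcnj2 on the TPM as deposited.

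Whether replicate numbers paired the libraries varied by tissue. The deviations of same-numbered libraries correlated at a median of 0.03 in heart (-0.55 to 0.55, over 0.1 in 8 of 24 pairs), -0.14 in lung, -0.07 in kidney and 0.00 in cerebellum, but at 0.22 in liver (over 0.1 in 16 of 24) and 0.10 in muscle (12 of 24). The replicate block raised the calls after IH among all genes from 2748 to 3644 in liver and from 1330 to 1738 in muscle, where no call after IH among the 9 genes came or went with it. With the replicate number as a block, 4 of the 9 genes changed in heart, 3 in lung and 1 in cerebellum, and among the 9 genes the block changed 1 call, Kcna5 between heart and muscle (0.25, limma adjusted p = 0.0477).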
